A study of Mus musculus with 18 samples.

Results

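The miR-34 family was followed here through its 3 major mature strands, mmu-miR-34a-5p, mmu-miR-34b-5p and mmu-miR-34c-5p, in small RNA libraries from brain cell fractions of mice aged 10 months. The members were taken by name from the mature miRNA rows of the deposited table, and all 3 were found among 1978 such rows, of which 1054 held at least 1 count, in a table of 203513 features. They were chosen by their raw counts in the 6 groups, which were already known, so their own values are given as a description and no p-value is attached to them. The mice were C57BL/6. They were wild type (WT), or carried on both alleles of Atxn2 a lengthened CAG repeat put there by knock-in (Atxn2-CAG100-KIN, KIN), which models spinocerebellar ataxia type 2, and no treatment is named. Magnetic beads drew CD11b-positive microglia and then ACSA-2-positive astrocytes from each dissociated brain, and neurons were the cells left after the other types had been bound. There were 6 groups, WT or KIN in each of the 3 fractions, with 3 libraries each. The study's text speaks of 3 mice per genotype, but the labels do not tie a replicate number to a brain, so the errors measure the spread between libraries.

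MicroRNAs are short RNAs that guide Argonaute proteins to messenger RNAs through bases 2 to 8 of the miRNA, its seed, and lower the stability and translation of what they bind. Members of the miR-34 family are among the best known miRNAs under direct transcriptional control of the tumour suppressor p53, and their described targets include regulators of the cell cycle, Notch pathway genes and the survival factor Bcl2. miR-34a comes from a gene of its own and is found in many tissues, including the brain, whereas miR-34b and miR-34c are processed from a shared primary transcript and are abundant in cells with motile cilia.

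The sequences show why these miRNAs are read as a family and which strands could be told apart. The letters below are those of the deposited table and are identical to RefSeq (GRCm38.p6), with the seed in capitals.
mmu-miR-34a-5p: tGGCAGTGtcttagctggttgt
mmu-miR-34b-5p: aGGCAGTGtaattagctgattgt
mmu-miR-449a-5p: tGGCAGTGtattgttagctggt
mmu-miR-449c-5p: aGGCAGTGcattgctagctgg
mmu-miR-34a-3p: aATCAGCAagtatactgccct
mmu-miR-34b-3p: aATCACTAactccactgccatc
mmu-miR-34c-3p: aATCACTAaccacacagccagg
All 3 members carried the seed GGCAGTG, and a search of every mature miRNA in the table found it in 3 others, mmu-miR-449a-5p, mmu-miR-449b and mmu-miR-449c-5p, which had 24, 0 and 2 counts over all 18 libraries. The seed family was therefore represented almost wholly by the members, with 10540 counts of mmu-miR-34a-5p, 8049 of mmu-miR-34b-5p and 30478 of mmu-miR-34c-5p. Along an alignment of 23 positions, mmu-miR-34b-5p and mmu-miR-34c-5p shared 21 bases, mmu-miR-34a-5p and mmu-miR-34b-5p shared 19, and mmu-miR-34a-5p and mmu-miR-34c-5p shared 18. Reads were placed without a limit on mapping quality, so how many reads of mmu-miR-34b-5p and mmu-miR-34c-5p went to the other could not be told from the table. The opposite strands differ more: mmu-miR-34b-3p and mmu-miR-34c-3p share the seed ATCACTA, while that of mmu-miR-34a-3p is ATCAGCA.

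In GRCm39, the build also named mm39, the Mir34a hairpin lies at chr4:150152911-150153012 on the plus strand, within an intron of the lncRNA Gm13067, and its last bases overlap an exon of the predicted gene model Gm37795. Mir34b (chr9:51014862-51014945) and Mir34c (chr9:51014334-51014410) lie on the minus strand with 451 bases between them, inside the span of Btg4, which is transcribed from the other strand, and outside its exons. The gene Hoatz starts 0.9 kb from Mir34c on the same strand. Transcripts around the loci were almost unseen in these libraries of short RNAs, with 1 count for Gm13067, 1 for Btg4, 3 for Hoatz and 33 for Gpr157, which lies 18.81 kb from Mir34a, over all 18 libraries.

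Libraries held 1211118 to 4316748 counts, and those of neurons were the smallest (1211118 to 2427384). Mature miRNAs made up 5.05 to 8.30% of the counts in WT astrocytes, 8.43 to 10.3% in KIN astrocytes, 5.09 to 5.99% in WT microglia, 5.86 to 8.45% in KIN microglia and 0.964 to 2.13% in neurons, so the scale on which a member is expressed matters for the comparison of genotypes. The summed level of 3 microglial miRNAs (miR-142a-3p, miR-142a-5p and miR-223-3p) was 2835 to 5914 counts per 1000000 counts of a library (CPM) in microglia and 10.2 to 48.5 in astrocytes. That of miR-9-5p and miR-9-3p, typical of neural cells, was 5835 to 9496 CPM in astrocytes and 59.1 to 245 in microglia. The fraction labelled neurons did not carry the neuronal miRNAs at a high level: miR-124-3p, miR-128-3p, miR-138-5p, miR-132-3p and miR-129-5p summed to 54.5 to 244 CPM there, against 1078 to 3265 in astrocytes. One neuronal library, WT replicate 2, stood apart with 10.6% of its counts on tRNA genes (2.94 to 5.88% in the other 5) and 111 CPM of the oligodendrocyte miRNAs miR-219a-2-3p, miR-219a-5p and miR-338-3p (0.655 to 11.5 in the other 5), and neuronal values are given with that in view. KIN replicate 1 had fewer counts of Xist, which female cells transcribe from the inactive X chromosome, than the other libraries of its fraction. It had 5, 4 and 5 in astrocytes, microglia and neurons, against 25 to 102, 36 to 61 and 12 to 88. The study names 2 male pairs and 1 female pair of mutant and WT mice, yet all WT libraries held Xist counts. The labels do not give the sex behind a library. CPM take a library's total over all features as their base and are relative amounts: fewer cells of a type and less RNA per cell cannot be told apart in them.

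The 3 members were spread differently over the fractions. mmu-miR-34c-5p was the most abundant of them over all libraries and was highest in the astrocyte fraction. There it ranked 18th by mean level among mature miRNAs in WT and 14th in KIN. That fraction also held neuronal and oligodendrocyte miRNAs, so the level belongs to the fraction and was not assigned to 1 cell type. In WT astrocytes it was measured at 730, 1180 and 1014 CPM, and in KIN astrocytes at 1747, 1774 and 1706 CPM, so that every KIN library lay above every WT library. In microglia it stood at 96.8, 25.05 and 93.3 CPM in WT and at 32.4, 46.1 and 59.4 CPM in KIN, and the genotypes overlapped. Neurons gave 1, 37 and 12 counts in WT and 27, 13 and 19 in KIN, or means of 9.20 ± 9.12 and 8.24 ± 3.10 CPM (SD, n = 3 each). Ordered by mean, the groups ran from KIN astrocytes over WT astrocytes, WT microglia, KIN microglia and WT neurons to KIN neurons, and the ranges of neighbours overlapped between the 2 microglia groups and between the 2 neuron groups.

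mmu-miR-34b-5p, the neighbour of mmu-miR-34c-5p on chromosome 9, followed the same order at a lower level, with 24.9 ± 2.00 counts of mmu-miR-34b-5p per 100 of mmu-miR-34c-5p in WT astrocytes and 27.0 ± 2.87 in KIN astrocytes. It was measured at 170, 321 and 247 CPM in WT astrocytes and at 526, 435 and 450 CPM in KIN astrocytes, again with no overlap. Microglia held 18.7, 6.91 and 24.8 CPM in WT and 14.9, 13.9 and 17.9 CPM in KIN. In neurons it was at the edge of detection, with 1, 6 and 1 counts in WT and 3, 1 and 6 in KIN. The lowest WT microglia library was replicate 2 for both mmu-miR-34b-5p and mmu-miR-34c-5p.

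mmu-miR-34a-5p was at similar levels in both glial fractions of WT mice and stood highest in KIN microglia. WT microglia held 153, 132 and 157 CPM and KIN microglia 409, 560 and 482 CPM, and the lowest KIN library was far above the highest WT library. In astrocytes it was at 108, 168 and 138 CPM in WT and 161, 163 and 148 CPM in KIN, which overlapped. Neurons gave 0, 34 and 1 counts in WT and 7, 4 and 2 in KIN, so the WT mean of 6.01 ± 9.85 CPM came almost wholly from replicate 2, the library that stood apart. The count of 0 in WT replicate 1 allows a level of up to 2.48 CPM, a limit that covers counting error only. In order, KIN microglia lay above KIN astrocytes, WT microglia and WT astrocytes, whose ranges overlapped each other, and these above both neuron groups.

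**Figure D1:**
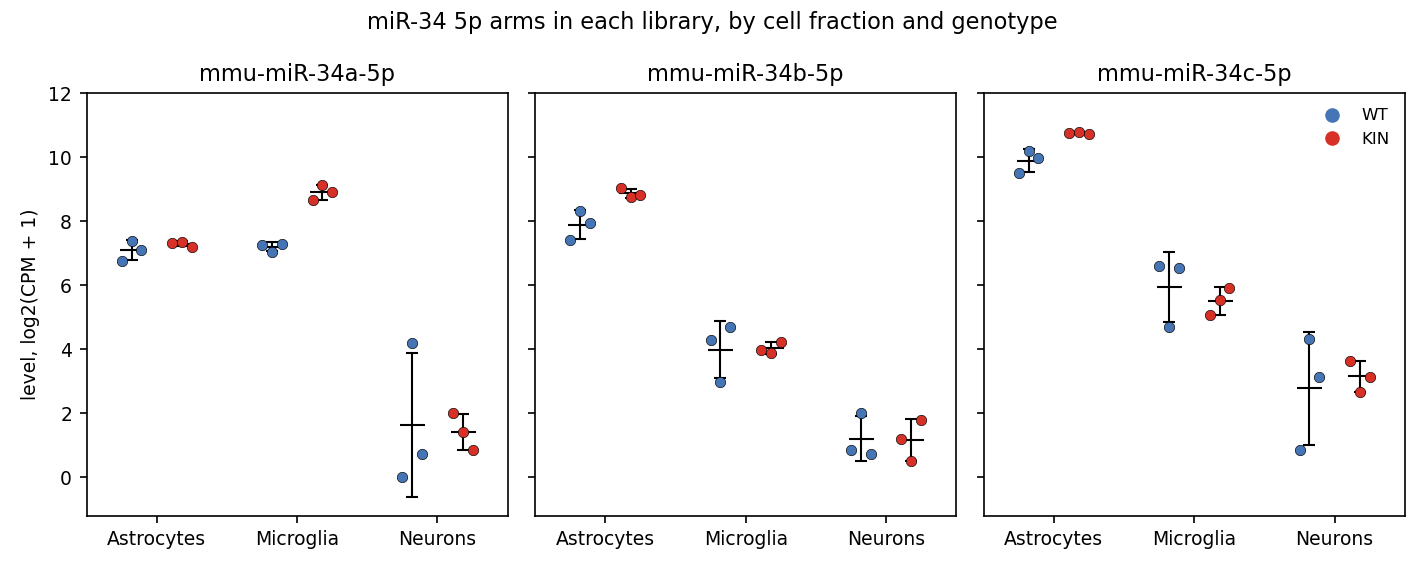
Level of each miR-34 5p strand as log2(CPM + 1) (y axis) in the 18 libraries, by fraction and genotype (x axis), with horizontal marks for group means and bars for the SD of 3 libraries. KIN libraries lie above all WT libraries for mmu-miR-34a-5p in microglia and for mmu-miR-34b-5p and mmu-miR-34c-5p in astrocytes. The neuronal libraries lie below every glial library for each strand.

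The make-up of the family accordingly differed between the fractions. mmu-miR-34c-5p supplied 71.9 ± 0.992% of the family's counts in WT astrocytes and 73.5 ± 1.59% in KIN astrocytes, with 10.2 ± 0.482% and 6.63 ± 0.234% from mmu-miR-34a-5p. In microglia, mmu-miR-34a-5p was the main member, with 64.9 ± 13.6% in WT and 88.7 ± 2.21% in KIN. As a share of all mature miRNA counts, the 3 members together made up 2.10 ± 0.169% in WT and 2.56 ± 0.192% in KIN astrocytes, 0.434 ± 0.101% in WT and 0.727 ± 0.0546% in KIN microglia, and 0.102 ± 0.0945% in WT and 0.0665 ± 0.00953% in KIN neurons. Both glial fractions thus held more of the family per mature miRNA in each KIN library than in each WT library, while in neurons the 93 WT and 82 KIN counts gave ranges that overlapped. The share of other miRNAs apart in this way was not counted.

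**Figure D2:**
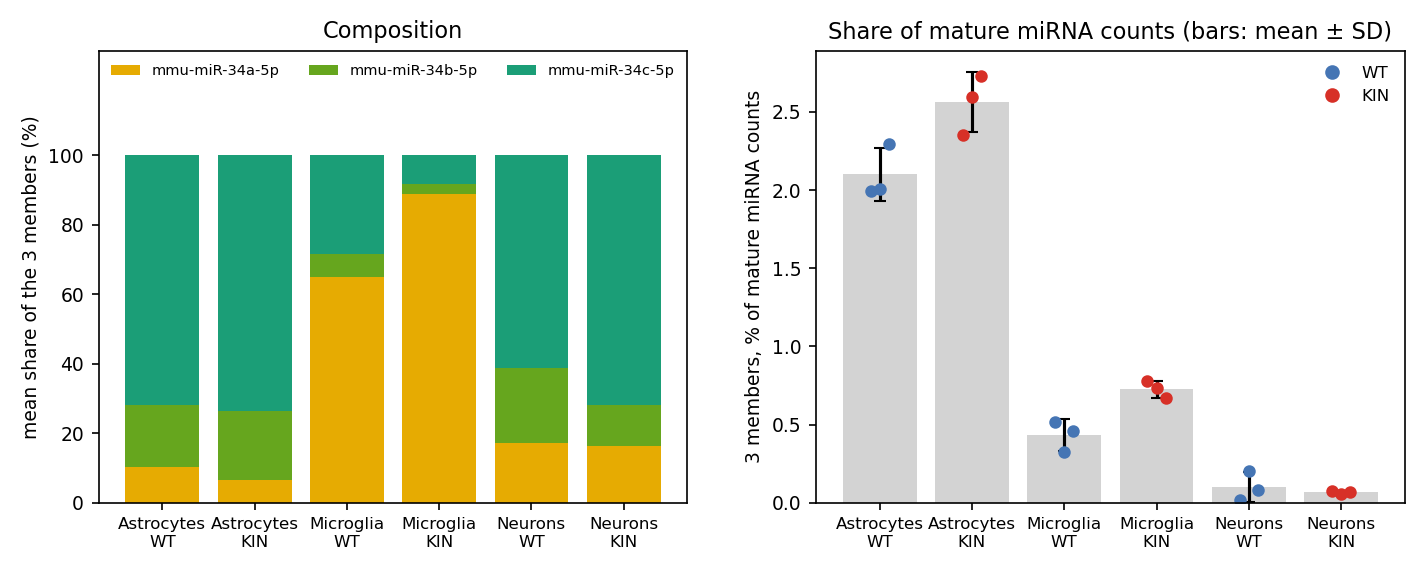
Left, mean share of each member in the counts of the 3 members (y axis, %) in the 6 groups (x axis). Right, the 3 members together as a percentage of mature miRNA counts, with points for libraries and bars for mean ± SD (n = 3). The family is mostly mmu-miR-34c-5p in astrocytes and mostly mmu-miR-34a-5p in microglia, and its share of miRNA counts falls from 2.56% in KIN astrocytes to 0.0665% in KIN neurons.

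The comparison of KIN with WT asks which small RNAs the mutation moves within a fraction. Fold changes are from edgeR fits over all features of a fraction. The word called stands for an adjusted p no higher than 0.05 together with a log2 fold change (log2FC) of 1 or more in either direction. In astrocytes 1 of the 3 members was called, mmu-miR-34b-5p, while 8.18% of all 5694 features were called, and, counting only those higher in KIN, 1.79% of all features and 11.2% of the 418 mature miRNAs. Its log2FC was 1.05 ± 0.22 (SE), that of mmu-miR-34c-5p was 0.96 ± 0.17, which falls short of the size the call requires, and that of mmu-miR-34a-5p was 0.31 ± 0.19. Left without single libraries, mmu-miR-34b-5p ranged from 0.80 to 1.30 and was called only without WT replicate 2, and with library totals it had 0.93 and was not called. DESeq2 called both mmu-miR-34b-5p (1.12) and mmu-miR-34c-5p (1.03). So did edgeR with no filter (1.24 and 1.16) and without WT replicate 2 (1.30 and 1.13). With the replicate block only mmu-miR-34b-5p was called (1.10), and with 1 fit of 18 libraries neither was (1.26 and 1.19). The groups did not overlap for 2 of the 3 members, with KIN on top, which also held for 10.8% of all features and for 34.7% of mature miRNAs.

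These astrocyte values sat within a general shift of mature miRNAs. The median log2FC of the 418 mature miRNAs tested was 0.58, against −0.19 for all features, so mmu-miR-34b-5p lay 0.47 and mmu-miR-34c-5p 0.38 above it, and mmu-miR-34a-5p lay below it by a difference of −0.27. They ranked 91st, 110th and 294th from the top. Scaled to mature miRNA counts alone, the fitted log2FC came to 0.39 ± 0.22 for mmu-miR-34b-5p and 0.28 ± 0.22 for mmu-miR-34c-5p and turned to −0.37 ± 0.24 for mmu-miR-34a-5p. On that scale the direction of mmu-miR-34a-5p in astrocytes is therefore the opposite of the one per library. As a percentage of mature miRNA counts, mmu-miR-34c-5p was 1.51 ± 0.135 in WT and 1.88 ± 0.175 in KIN, mmu-miR-34b-5p was 0.376 ± 0.0351 and 0.506 ± 0.0287, and mmu-miR-34a-5p was 0.214 ± 0.0121 and 0.170 ± 0.0123, and the ranges of WT and KIN did not overlap for any of the 3. How many other miRNAs lay apart on this scale was not counted, so this is a description. mmu-miR-34a-5p was lower in KIN per mature miRNA while its CPM overlapped.

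In microglia 1 of the 3 members was called, mmu-miR-34a-5p, with 4.35% of all 4940 features called, and, counting only those higher in KIN, 1.42% of all features and 8.38% of 382 mature miRNAs. Features called lower were 2.94%. Its log2FC was 1.93 ± 0.19, or 3.81-fold, which was the 14th highest among mature miRNAs, whose median was 0.46. It was 1.52 ± 0.22 when scaled to mature miRNA counts, and the share of mature miRNA counts went from 0.273 ± 0.0200% in WT to 0.646 ± 0.0619% in KIN. Without any 1 of the 6 libraries it stayed between 1.82 and 1.96, but it was not called without WT replicate 1, when edgeR called 0 of the features. The groups were apart for this member only, as they were, with KIN on top, for 8.12% of all features and 21.7% of mature miRNAs. The log2FC of mmu-miR-34b-5p was 0.16 ± 0.38 and that of mmu-miR-34c-5p was −0.37 ± 0.41, both below the median of mature miRNAs.

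Markers of other cells moved with genotype in the microglia fraction and are set beside these values. The summed microglial miRNAs were at 2835 to 3389 CPM in WT and 3097 to 5914 in KIN. Per 100 counts of miR-142a-3p, mmu-miR-34a-5p had 5.77 to 6.11 in WT and 10.8 to 15.6 in KIN. The 6 miRNAs of sensory and olfactory epithelium and the pineal gland summed to 42.6 to 79.5 CPM in WT and 4.13 to 10.7 in KIN microglia, with 6 of 6 called lower. The red blood cell miRNAs summed to 17.3 to 22.2 CPM in WT and 28.6 to 131 in KIN and those of mural cells to 145.1 to 202 and 59.4 to 136, neither pair of ranges overlapping and 0 of 2 called in each list. The miR-9 strands summed to 82.3 to 245 CPM in WT microglia and 59.1 to 68.6 in KIN, and the neuronal miRNAs to 66.2 to 171 and 53.4 to 61.2. WT replicate 2 was the lowest of its group for both sums, as it was for mmu-miR-34b-5p and mmu-miR-34c-5p. Per 100 counts of miR-9-5p, mmu-miR-34c-5p had 33.9 to 51.5 counts in WT and 61.4 to 109 in KIN microglia, compared with 14.5 to 17.1 in WT and 27.3 to 27.7 in KIN astrocytes. The part of other cells in the microglial values of the 3 members was not tested.

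The ependyma carries motile cilia, so miRNAs linked to it were followed, in 1 list with those of the choroid plexus. The summed level of the 4 listed (miR-204-5p, miR-211-5p, miR-449a-5p and miR-449c-5p) was 511 to 691 CPM in WT and 418 to 694 in KIN astrocytes, which overlapped, and 133 to 190 CPM in WT and 177 to 297 in KIN microglia. Nearly all of this was miR-204-5p, with a log2FC of 0.02 ± 0.19 in astrocytes (adjusted p = 0.944) and 0.70 ± 0.30 in microglia (adjusted p = 0.183). miR-211-5p rose in KIN microglia by 3.03 ± 0.35 (adjusted p = 0.00692, edgeR) from 21 to 163 counts over 3 libraries. miR-449a-5p, which is typical of ciliated cells, gave 24 counts in all. Transcripts of the choroid plexus and ependyma summed to 11.3 to 26.7 CPM in WT and 12.1 to 38.1 in KIN astrocytes, 7.77 to 9.54 and 6.02 to 19.4 in microglia, and 274 to 632 and 367 to 586 in neurons. The 4 miRNAs summed to only 37.2 to 240 CPM in WT and 139 to 259 in KIN neurons, below astrocytes. The miRNA and transcript lists thus ran in opposite directions between these fractions, and the miRNA sum does not measure such cells in astrocytes. In astrocytes the microglial miRNAs summed to 10.2 to 12.6 CPM in WT and 24.99 to 48.5 in KIN, with 1 of 3 called, and the oligodendrocyte miRNAs to 1770 to 3035 in WT and 3351 to 5112 in KIN, with 1 of 3 called. The part of these cells in the members' values was not tested.

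In neurons none of the 3 members was called, and edgeR called 0 of 4535 features (0%), with 197 at an unadjusted p below 0.05 and 0 called by DESeq2. The log2FC were −1.80 ± 1.10 for mmu-miR-34a-5p, −0.23 ± 0.92 for mmu-miR-34b-5p and −0.21 ± 0.69 for mmu-miR-34c-5p. Without WT replicate 2 the log2FC of mmu-miR-34c-5p was 0.78, whereas mmu-miR-34a-5p and mmu-miR-34b-5p did not reach the count filter.

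The fits among WT libraries give the distance between the fractions. Of the 3 members 2 were called between microglia and astrocytes, where 31.5% of 6397 features were called, with a log2FC of −3.83 ± 0.41 for mmu-miR-34b-5p and −3.74 ± 0.40 for mmu-miR-34c-5p, and 0.19 ± 0.25 for mmu-miR-34a-5p. All 3 were called between neurons and astrocytes, where 28.7% of 5916 features were called, with −4.58 ± 1.07, −7.40 ± 0.64 and −6.86 ± 0.83 in the order of the letters. Mature miRNAs as a whole had medians of −0.28 and −2.66 in these comparisons. The difference between the KIN effects in microglia and astrocytes was 1.63 ± 0.29 for mmu-miR-34a-5p, −0.88 ± 0.43 for mmu-miR-34b-5p and −1.30 ± 0.44 for mmu-miR-34c-5p, and 1 of 3 was called, with 0.312% of 7053 features. The replicate block gave 61 called features in place of 22, and 9 of the 12 fits that each left out 1 library called no feature. mmu-miR-34a-5p was not called with no filter or with 1 fit of 18 libraries either, and mmu-miR-34c-5p was called without WT microglia replicate 2.

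The strands from the opposite side of the hairpins were counted on rows of their own and were tested. They come from the same hairpins as the members, whose counts were known when they were chosen. Their p-values are therefore not independent of that choice and are no separate support for the members' values. In astrocytes both 3p strands of the chromosome 9 hairpins rose. mmu-miR-34b-3p went from 135.5 ± 23.6 to 261.6 ± 10.7 CPM (log2FC 1.07 ± 0.17, adjusted p = 0.00696, edgeR) and mmu-miR-34c-3p from 58.7 ± 19.7 to 117.5 ± 19.8 CPM (log2FC 1.12 ± 0.27, adjusted p = 0.0341), each with KIN above WT in all libraries. That is 2 of the 3 strands in the list, whose median log2FC was 1.07, beside 0.58 for the mature miRNAs tested. Called higher were 11.2% of mature miRNAs and 1.79% of all features, and 34.7% of mature miRNAs had KIN above WT in all libraries. Scaled by library totals mmu-miR-34b-3p and mmu-miR-34c-3p had 0.95 and 1.00, just under the size required. Scaled to mature miRNA counts they had 0.38 (adjusted p = 0.217) and 0.48 (adjusted p = 0.190), so the calls did not hold on that scale. Neither strand was called without WT replicate 1, without WT replicate 3 or without KIN replicate 3, and without KIN replicate 1 or KIN replicate 2 only mmu-miR-34b-3p was. With 1 fit of 18 libraries neither was called, at 1.31 (adjusted p = 0.107) and 1.35 (adjusted p = 0.108). mmu-miR-34a-3p was rare, with 12 counts in WT and 16 in KIN (log2FC 0.49 ± 0.62, adjusted p = 0.606).

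In microglia no 3p strand was called by edgeR or by DESeq2. By edgeR 2 of 3 had an unadjusted p below 0.05, as did 1250 of all 4940 features. Without the filter on low counts edgeR called mmu-miR-34b-3p lower (−1.69, adjusted p = 0.00599). mmu-miR-34b-3p gave 72, 13 and 130 counts in WT and 19, 16 and 27 in KIN (log2FC −1.61 ± 0.62, adjusted p = 0.146), mmu-miR-34c-3p gave 45, 5 and 56 against 14, 8 and 15 (−1.31 ± 0.68, adjusted p = 0.272), and mmu-miR-34a-3p gave 12, 10 and 8 against 15, 23 and 26 (1.14 ± 0.39, adjusted p = 0.110). For both chromosome 9 strands the WT library nearest to KIN was again replicate 2, the one with least miR-9. Without WT replicate 2 all 3 passed, with log2FC of −2.07, −1.82 and 1.23. The difference of the KIN effects between microglia and astrocytes was −2.67 ± 0.61 for mmu-miR-34b-3p (adjusted p = 0.0642), −2.44 ± 0.69 for mmu-miR-34c-3p (adjusted p = 0.133) and 0.65 ± 0.74 for mmu-miR-34a-3p (adjusted p = 0.865). Both chromosome 9 strands passed this test with DESeq2 (adjusted p = 0.00864 and 0.0403), with no filter (2.50e-05 and 0.00131), without WT astrocyte replicate 2 (0.0261 and 0.0485) and without WT microglia replicate 2 (0.000460 and 0.00260), and mmu-miR-34b-3p alone without KIN microglia replicate 1 (0.0442). In neurons mmu-miR-34b-3p (log2FC −0.80 ± 0.64, adjusted p = 0.917) and mmu-miR-34c-3p (−0.23 ± 0.70, adjusted p = 0.972) were not called, and mmu-miR-34a-3p was too rare to test.

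**Figure D3:**
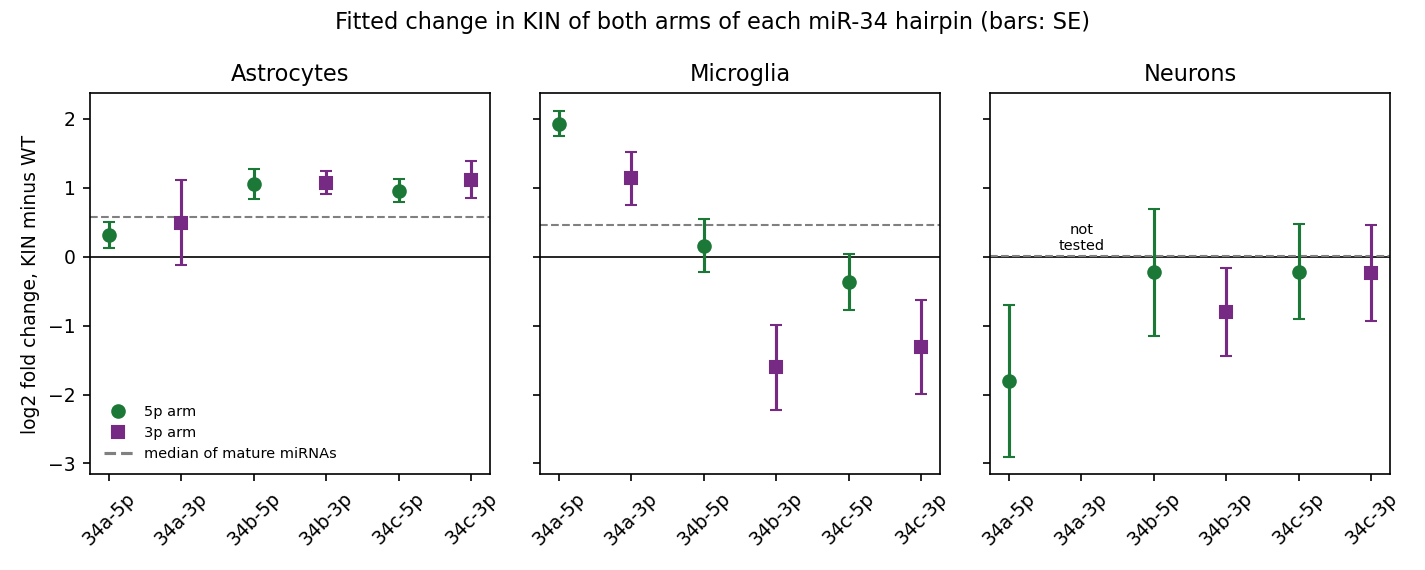
Fitted log2FC of KIN against WT (y axis) for the 5p and 3p strands of each hairpin (x axis), with bars for the SE and a dashed line at the median of the mature miRNAs tested in that fraction. In astrocytes both strands of miR-34b and miR-34c lie between 0.96 and 1.12, and in microglia mmu-miR-34a-5p stands at 1.93 while mmu-miR-34b-3p stands at −1.61.

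Set against each other within a library, the 5p and 3p strands gave a share that does not depend on the scaling. For miR-34a the 5p strand took 97.8 to 99.7% of the counts of both strands in every glial library. For miR-34c it took 92.8 to 94.99% in astrocytes and 85.9 to 96.1% in microglia, and 71.4% of 70 pooled counts in WT and 71.1% of 83 in KIN neurons. miR-34b was the most even, with a 5p share of 60.6 to 67.1% in WT and 62.0 to 67.9% in KIN astrocytes, which overlapped. In microglia the share was 41.2 to 64.9% in WT and 71.2 to 78.9% in KIN, which did not overlap, over 395 and 246 counts. In neurons the 3p strand was the main one, with 8 counts of mmu-miR-34b-5p against 52 of mmu-miR-34b-3p in WT and 10 against 41 in KIN, and the 5p share stayed between 9.09 and 28.6% in the 6 libraries, all below every glial library. The WT microglia libraries with the lower share, replicates 1 and 3, were also those with more miR-9-5p, at 188 and 218 CPM against 74.0 in replicate 2, and the part of that in the share was not tested.

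**Figure D4:**
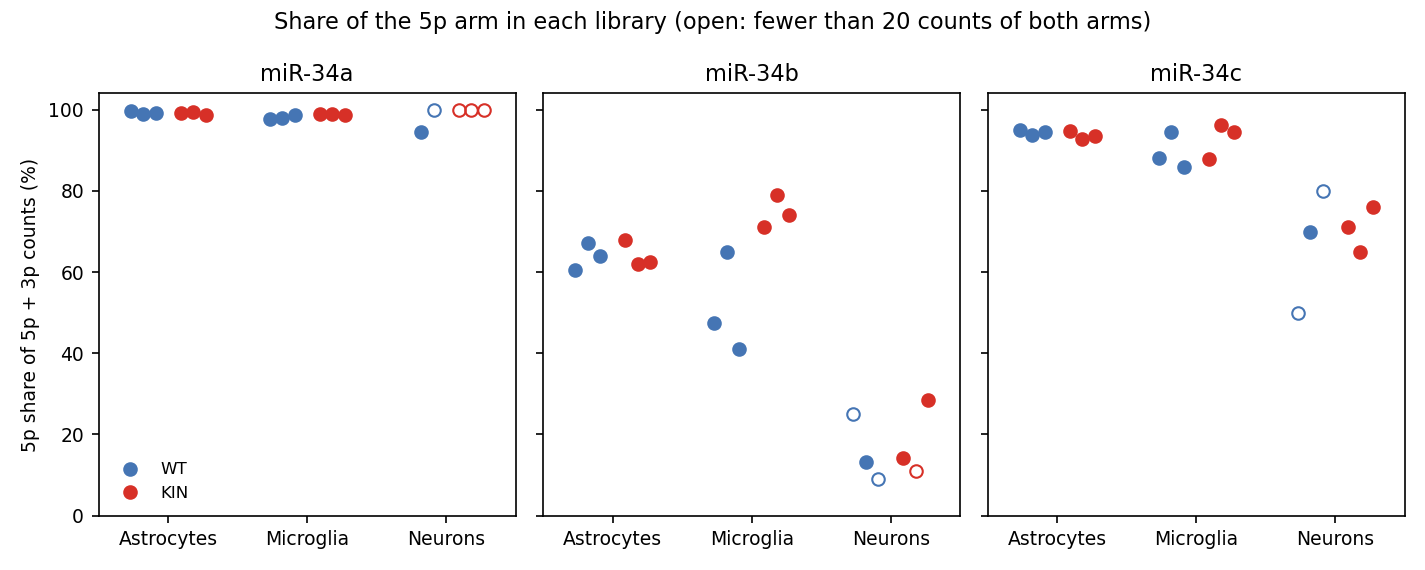
Share of the 5p strand in the counts of both strands (y axis, %) for each hairpin in each library, by fraction and genotype (x axis), with open points for fewer than 20 counts. The miR-34b share lies between 60.6 and 67.9% in astrocytes and at 28.6% or less in neurons.

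The hairpin rows Mir34a, Mir34b and Mir34c of the Ensembl catalogue carried 82.4 to 93.3%, 84.2 to 99.0% and 72.4 to 79.3% of the counts of their own mature strands in libraries with at least 100 such counts. They moved as the strands did, with log2FC in microglia of 1.92 ± 0.19 for Mir34a, −0.36 ± 0.46 for Mir34b and −0.40 ± 0.43 for Mir34c, and in astrocytes of 0.33 ± 0.18, 1.06 ± 0.19 and 1.02 ± 0.16. Whether these rows count reads that the mature rows hold too could not be told, so they are no independent measure.

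The mature miRNAs whose levels over the 18 libraries most resembled each member were named by Pearson's r of log2(CPM + 1) among 480 mature miRNAs, a description in which all points share libraries and depth. For mmu-miR-34a-5p they were miR-29b-3p (r = 0.988), miR-3068-5p (0.984), miR-22-3p (0.984), miR-103-3p (0.983) and miR-24-3p (0.980), which are high in both glial fractions and low in neurons. miR-3068-5p was also highest in KIN microglia, with 27.8 ± 4.99 CPM in WT and 72.6 ± 15.4 in KIN microglia. For mmu-miR-34c-5p they were mmu-miR-34b-5p (0.984), miR-365-3p (0.984), miR-151-5p (0.978), miR-330-5p (0.974) and miR-151-3p (0.971), and for mmu-miR-34b-5p miR-125a-5p (0.984), mmu-miR-34c-5p (0.984), miR-338-3p (0.980), let-7e-5p (0.978) and miR-29b-2-5p (0.970). miR-365-3p was at 102.0 ± 12.3 CPM in WT and 106.7 ± 4.40 in KIN astrocytes, so a high r did not require a difference between the genotypes there. mmu-miR-34b-5p and mmu-miR-34c-5p, from 1 locus, were each other's nearest or second nearest miRNA.

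p53 also controls other miRNAs, and 12 that it is known to induce were followed beside the family. In astrocytes 9 were tested, with 2 called higher and 1 lower in KIN and a median log2FC of 0.59, near the 0.58 of all mature miRNAs. miR-15a-5p rose from 253 ± 91.7 to 543 ± 140.0 CPM (log2FC 1.21 ± 0.26, adjusted p = 0.0222) and miR-16-5p, from the same cluster, from 1627 ± 506 to 3267 ± 390 CPM (1.12 ± 0.21, adjusted p = 0.0142). The epithelial miRNA miR-200c-3p fell from 89 counts to 1, a ratio of 91.8 (95% exact interval 16.1 to 3667, counting error only), with a log2FC of −5.99 ± 0.92 (adjusted p = 0.00667). It moved with 6 miRNAs of sensory and olfactory epithelium and the pineal gland, whose sum was 50.2 to 128.1 CPM in WT and 3.22 to 4.74 in KIN astrocytes, with 6 of 6 called lower, and the part of such cells was not tested. It was not called without KIN replicate 3. Neither higher call held without WT replicate 1, WT replicate 3 or any 1 of the 3 KIN libraries, and scaled to mature miRNA counts there was none, whereas without WT replicate 2 there were 4. In microglia 10 were tested and 2 rose, miR-22-3p from 125 ± 6.03 to 262 ± 70.8 CPM (1.27 ± 0.22, adjusted p = 0.0230) and miR-107-3p from 57.7 ± 9.31 to 101.2 ± 20.4 CPM (1.03 ± 0.22, adjusted p = 0.0334), with a median of 0.39. Neither was called without WT replicate 1 or 3 or without KIN replicate 2 or 3, without KIN replicate 1 there were 3 higher calls, and none was called higher on the mature miRNA scale. In neurons 0 of 9 were called by edgeR or DESeq2, with 0 at an unadjusted p below 0.05.

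The miR-17-92 cluster, which promotes proliferation and is repressed by p53, was followed as a second list. All 6 of its listed strands rose in KIN astrocytes, with a median log2FC of 1.85: miR-17-5p by 1.71 ± 0.24 (adjusted p = 0.00470), miR-18a-5p by 1.92 ± 0.28 (0.00528), miR-19a-3p by 2.08 ± 0.30 (0.00470), miR-19b-3p by 1.90 ± 0.21 (0.00218), miR-20a-5p by 1.80 ± 0.25 (0.00470) and miR-92a-3p by 1.28 ± 0.16 (0.00434). miR-19b-3p, the most abundant, went from 103 ± 31.3 to 356 ± 17.7 CPM. All 6 were called without any 1 of the 6 libraries, and 5 when scaled to mature miRNA counts. These strands are also abundant in microglia, where miR-19b-3p was at 702 ± 113 CPM in WT and 721 ± 118 in KIN. The microglial miRNA miR-142a-3p was at 7.88 ± 1.05 CPM in WT and 28.2 ± 10.0 in KIN astrocytes, against 4057 ± 1285 in KIN microglia. The part of microglia in the rise of these strands was not tested. In microglia 1 of 6 rose, miR-18a-5p (1.13 ± 0.27, adjusted p = 0.0467), which was not called without WT replicate 1 or 3 or KIN replicate 2 or 3, and the median was 0.39. In neurons 0 of 6 were called by edgeR or DESeq2, with 1 at an unadjusted p below 0.05 and log2FC from 0.47 to 1.04. The KIN effects in microglia and astrocytes differed for miR-19b-3p (−1.64 ± 0.32, adjusted p = 0.0381) and not by the test for the other 5 (adjusted p from 0.0572 to 0.539), and 9 of the 12 fits without single libraries called no feature in this test.

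Of 4 miRNAs described as acting on the mRNA of p53 itself, 0 were called by edgeR in any fraction, and DESeq2 called 1 in microglia. At an unadjusted p below 0.05 were 2 of 3 tested in astrocytes, 3 of 4 in microglia and 0 of 3 in neurons. Among all features that p was reached by 1955 of 5694 in astrocytes, 1250 of 4940 in microglia and 197 of 4535 in neurons. miR-125b-5p, the most abundant of them, had a log2FC of 0.89 ± 0.11 in astrocytes (adjusted p = 0.00287), short of the size required, from 6646 ± 575 to 11290 ± 1113 CPM. miR-504-5p had 13 counts in WT and 48 in KIN microglia (1.91 ± 0.51, adjusted p = 0.0632).

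**Figure D5:**
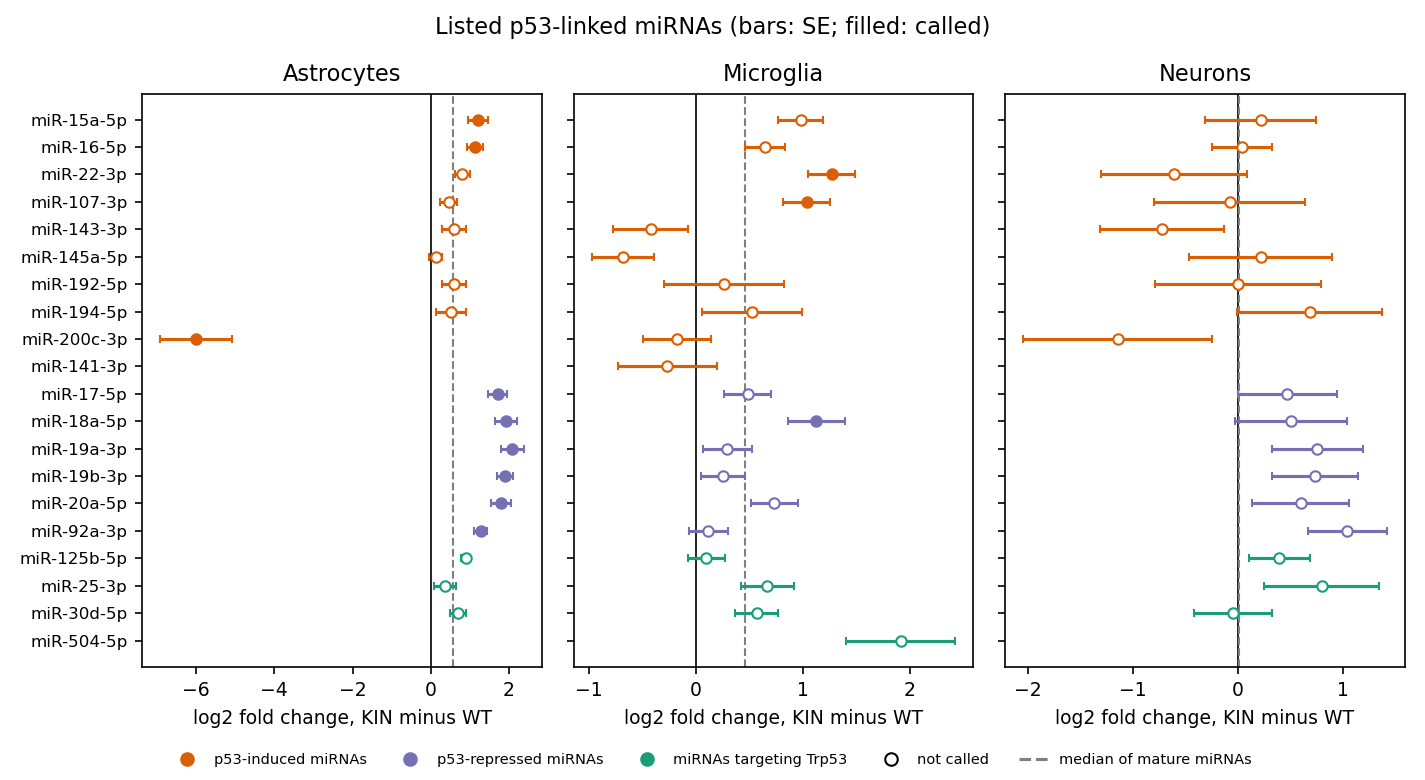
Log2FC of KIN against WT (x axis, range set per panel) with SE for the listed miRNAs induced by p53, repressed by p53 or acting on Trp53 mRNA (y axis) in each fraction, filled where called. The 6 strands of the miR-17-92 cluster lie between 1.28 and 2.08 in astrocytes, and miR-200c-3p lies at −5.99.

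Messenger RNAs were seen only as short fragments. Of 25 genes known as p53 targets, Btg2 alone had a transcript with enough counts, in microglia (Btg2-201, log2FC −0.51 ± 0.47, adjusted p = 0.578), and the 25 together had 207 to 275 counts per fraction. Of 23 described miR-34 targets, 5 genes with 8 transcripts were tested in astrocytes, where 3 transcripts of Ank3 were called lower and none higher. Ank3 encodes ankyrin-G, a membrane scaffold protein. Its transcript Ank3-244 had 52 counts in WT and 1 in KIN (log2FC −5.17 ± 0.84, adjusted p = 0.00838), a ratio of 53.6 (95% exact interval 9.21 to 2159). Ank3-233 had 27 and 2 counts (−3.45 ± 0.70, adjusted p = 0.0179) with a ratio of 13.9 (3.50 to 121), and Ank3-225 had 18 and 1 (−3.66 ± 0.95, adjusted p = 0.0392) with a ratio of 18.6 (2.93 to 774). Transcripts of 1 gene divide shared reads, and lower calls made up 6.39% of all features in astrocytes, so the 3 are not separate results. None of the 3 was called without WT replicate 3, without KIN replicate 1 or without KIN replicate 3, 1 was without KIN replicate 2, and 2 were without WT replicate 1. The study reported a loss of neuronal transcripts from its glial fractions in KIN mice, and the part of that in the Ank3 values was not tested. The Notch genes Notch1-201 (0.01 ± 0.31, adjusted p = 0.986) and Notch2-201 (−0.35 ± 0.38, adjusted p = 0.544) and the chromatin gene transcript Mta2-204 (−0.20 ± 0.26, adjusted p = 0.612) did not pass. Neither did Ank3-231 (37 counts in WT and 16 in KIN, −1.11 ± 0.42, adjusted p = 0.0982) and Jag1-201 (18 and 6, −1.46 ± 0.61, adjusted p = 0.123). The astrocyte list had a median log2FC of −1.28, with 5 of 8 transcripts at an unadjusted p below 0.05. That p was also reached by 1955 of all 5694 features. Apart from Jag1-201, the listed transcripts below 0.05 were all from Ank3, so neither value describes the listed genes as a set. In microglia, where mmu-miR-34a-5p was highest, edgeR called 0 of 9 transcripts and DESeq2 called 1. An unadjusted p below 0.05 by edgeR was found for 1 of the 9, and for 1250 of all 4940 features. The values were −1.18 ± 0.35 for Mta2-204 (adjusted p = 0.0812), −0.69 ± 0.33 for Csf1r-202, from the gene of a receptor that microglia need (adjusted p = 0.228), and −0.63 ± 0.32 for Csf1r-201 of the same gene (adjusted p = 0.253). In neurons edgeR and DESeq2 called 0 of 6, with 1 at an unadjusted p below 0.05.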

How the data were processed

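The deposited table gives raw counts, whole numbers of reads per feature, for 18 libraries made by adapter ligation with molecular identifiers (collapsing of duplicates is not described for these libraries). According to the study's methods the authors trimmed reads with Cutadapt 4.6 to at least 20 bases, placed them with Bowtie2 2.4.4 in rounds on mature miRNAs, tRNAs, piRNAs, noncoding and coding transcripts (mm39) and counted them with HTSeq 2.0.2 without strand or mapping quality limit. Groups came from titles. A further 36 per-library columns on other scales and 33 columns with the authors' group means, fold changes and p-values were not used.

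CPM were computed to library totals. Counts were tested with edgeR 4.0.16 (quasi-likelihood, TMM, R 4.3.3) within each fraction, between WT fractions, and for the interaction, on features that reached 5 counts in 2 or more libraries, with Benjamini-Hochberg adjustment over all features. The script was tested on simulated data. Named were the members, their 3p strands and hairpins, seed relatives, the 5 nearest miRNAs, genes within 20 kb, and listed p53-linked miRNAs and transcripts (those called, otherwise the 3 with most counts). The members and lists were chosen with earlier results of these data known. Alternatives were DESeq2 1.42.0, library totals, mature miRNA totals, no filter, 1 fit of all libraries, a replicate block and leaving out each library. By their deviations, replicate numbers did not pair WT with KIN (deviations of same-numbered libraries correlated at −0.284 to 0.188). Same-numbered microglia and astrocytes correlated at 0.292, 0.321 and 0.0135 in WT and at −0.264 to −0.0573 in KIN. For neurons and astrocytes the values were 0.139, 0.312 and 0.109 in WT (5916 features) and −0.0484 to 0.187 in KIN. The correlations did not settle whether a number marks a brain across fractions. The study took the 3 fractions in turn from 1 brain, so libraries of different fractions can share a brain. Only the replicate block allowed for this in the fits between fractions and for the interaction. KIN replicate 1 had the least Xist in all 3 fractions, and the labels do not say whether a number marks a brain.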

Additional observations from a re-analysis of the deposited data

Results flagged for a closer look

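The KIN effects in microglia and astrocytes differed by the interaction test of edgeR for 2 listed miRNAs outside the family. For mmu-miR-19b-3p of the miR-17-92 cluster the effect in microglia minus that in astrocytes was −1.64 ± 0.32 on the log2 scale (adjusted p = 0.0381), with KIN above WT in all astrocyte libraries and overlap in microglia. For mmu-miR-200c-3p the difference was 5.84 ± 1.00 (adjusted p = 0.0294), from 89 counts in WT and 1 in KIN astrocytes and 99 and 86 in microglia (log2FC −0.18 ± 0.32, adjusted p = 0.817). The 6 miRNAs of sensory and olfactory epithelium and the pineal gland were called lower in both fractions, 6 of 6 in each. In neurons they summed to 41.9 to 62.9 CPM in WT and 4.27 to 15.7 in KIN, with 0 of 5 tested called and 4 at an unadjusted p below 0.05. The part of such cells in the values of mmu-miR-200c-3p was not tested. Without single libraries 9 of 12 interaction fits called no feature, so neither difference was called there. With 1 fit of 18 libraries mmu-miR-200c-3p was called and mmu-miR-19b-3p was not.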

How the results depend on the processing

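The log2FC of mmu-miR-34a-5p in microglia moved from 1.93 to 1.71 with library totals and 1.52 with mature miRNA scaling, and ranged from 1.82 to 1.96 without single libraries. In astrocytes mature miRNA scaling gave −0.37, 0.39 and 0.28 for mmu-miR-34a-5p, mmu-miR-34b-5p and mmu-miR-34c-5p, and 1 fit of 18 libraries gave 0.54 for mmu-miR-34a-5p. Without single libraries the 3 ranged from 0.11 to 0.49, 0.80 to 1.30 and 0.74 to 1.13. The cause of these moves was not tested.

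Counts of called features, which were 466 in astrocytes, 4.35% of 4940 features in microglia, 0 in neurons, 2016 and 1698 for WT microglia and WT neurons against astrocytes, and 22 for the interaction, moved with the setting. Mature miRNA scaling gave 1494 in astrocytes, 329 in microglia, 20 in neurons, 3104 for WT neurons against astrocytes and 10 for the interaction. With 1 fit of 18 libraries there were 237, 400 and 61 in astrocytes, microglia and the interaction. DESeq2 called 379 in microglia and 140 for the interaction, no filter 426, 75 and 108 in microglia, neurons and the interaction, and library totals 53 for the interaction. Without single libraries the ranges were 41 (without WT replicate 3) to 1527 (without WT replicate 2) in astrocytes, 0 (without WT replicate 1) to 940 (without WT replicate 2) in microglia, 0 to 52 in neurons, 1437 to 2134, 911 to 1940, and 0 to 362.

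With replicate block the counts were 691, 49, 0, 2289, 1974 and 61, and list members called in microglia went to 0. The numbers did not pair genotypes, and between WT neurons and WT astrocytes the block changed no call of a 3p strand.

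List members called numbered 14 in astrocytes (6 to 16 without single libraries), 3 in microglia (0 to 7; 5 by DESeq2, 1 with library totals, 1 with mature miRNA scaling) and 0 in neurons (0 to 1; 8 with no filter).

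Directions turned for mmu-miR-34b-5p in microglia with library totals (−0.11), mature miRNA scaling (−0.26) and without WT replicate 2 (−0.16), for mmu-miR-34b-5p in neurons without KIN replicate 2 (0.17), for mmu-miR-34c-5p in neurons with the replicate block (0.11) and without WT replicate 2 (0.78), for mmu-miR-34a-3p in astrocytes with mature miRNA scaling (−0.078), for mmu-miR-34c-3p in neurons with the replicate block (0.043), and without single libraries for mmu-miR-34b-3p (−1.21 to 0.24) and mmu-miR-34c-3p (−0.62 to 1.13) in neurons and for the interaction of mmu-miR-34a-3p (−0.12 to 1.01). None of these was called.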
